A study of Mus musculus with 4 samples.

Results

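The miR-29 family was followed across the androgen manipulation through its 4 members carried by the array under the names mmu-miR-29a, mmu-miR-29b, mmu-miR-29c and mmu-miR-29c*, chosen by name from the 567 mouse miRNAs measured. RNA came from Sertoli cells of adult B6129 male mice, each preparation being a pool of several animals. Sertoli cells line the seminiferous tubule and nurse developing germ cells, and the study asked which of their miRNAs respond to testosterone. Of 4 Agilent single-color miRNA arrays, 1 held RNA from sham-treated mice (Sham), 2 held RNA from mice given an implant of the antiandrogen flutamide and injections of the gonadotropin-releasing hormone antagonist acyline (Flut+Acy), and 1 held RNA from mice given both drugs together with a testosterone implant (Flut+Acy+T). The labels name flutamide alone for the Flut+Acy arrays, testosterone alone for Flut+Acy+T and control for Sham. Acyline on the Flut+Acy arrays, both drugs on Flut+Acy+T and the sham treatment are taken from the study's methods. The sources used here do not say whether the Flut+Acy arrays came from separate pools, so the p-values measure only the spread between these arrays, which may be technical. All groups shared the strain and sex.

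A miRNA gene is transcribed into a hairpin, and Dicer cuts the hairpin into a duplex of its 5′ and 3′ arms, one of which is usually retained by Argonaute while the other, marked with a star in older names, is largely degraded. The retained arm pairs with messenger RNAs mainly through its seed, the bases from position 2 to 8. The 3′ arms of the miR-29 family are known to repress messenger RNAs of collagens, elastin and other extracellular matrix proteins, and of DNA methyltransferases.

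The mature sequences are shown because the family is defined by them, and because they set how well an array can tell the members apart. They are given 5′ to 3′ from RefSeq (GRCm38.p6), with the seed in capitals.
miR-29a (RefSeq miR-29a-3p): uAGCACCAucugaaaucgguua
miR-29b (RefSeq miR-29b-3p): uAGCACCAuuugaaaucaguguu
miR-29c (RefSeq miR-29c-3p): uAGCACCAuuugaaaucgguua
miR-29c* (RefSeq miR-29c-5p): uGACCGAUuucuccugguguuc
The seed AGCACCA was found in these 3 mature names and in no other of the RefSeq mouse table, whereas the seed GACCGAU of miR-29c* was found in that name alone. Counted from position 1 at the 5′ end, miR-29a and miR-29c had 21 of 22 bases in common and differed by C10U. miR-29b and miR-29c differed by A18G, G21U and U22A over the 22 bases compared, and miR-29b was 1 base longer, at 23 bases. How far the probes separate such close sequences was not tested.

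Both arms of miR-29c are cut from the hairpin of Mir29c, which is shown to place them, with the 5′ arm (miR-29c*) and then the 3′ arm (miR-29c) in capitals.
Mir29c hairpin: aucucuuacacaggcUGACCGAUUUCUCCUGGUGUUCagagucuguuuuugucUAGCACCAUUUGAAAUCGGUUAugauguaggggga
In GRCm38.p6 the hairpin of 88 bases lies on the plus strand at chr1:195037547-195037634, with 16 bases between the arms. Mir29b-2 lies on the same chromosome with 426 bases between the hairpins. Mir29a and Mir29b-1 form the other pair, on chromosome 6, with 275 bases between their hairpins. Both copies of Mir29b give the same mature miR-29b, so its signal is that of 2 genes. The array annotates its probes on mm9, with the probes of miR-29b and of both arms of miR-29c on chromosome 1 and those of miR-29a on chromosome 6. The 3′ ends of the arms of miR-29c were 38 bases apart in the array's positions and also in RefSeq, which is the basis for matching miR-29c* to miR-29c-5p.

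Each member was read by 2 probes of 10 spots each, covering 19 to 22 bases, and no spot of a member was saturated. The scanner software sums a miRNA's probes into a total signal with an error and a flag for detection. All 4 members were flagged as detected on all 4 arrays. The summed positive signal of all mouse miRNAs was 2.41 and 2.79 times that of Sham in the Flut+Acy pair and 3.49 times on Flut+Acy+T. The Flut+Acy+T array stood apart: the SD of its 672 negative-control spots was 1326 units against 2.72 to 7.45 on the other 3 arrays, 225 of those spots (33.5%) were well above background against 2 to 7 spots elsewhere, and 102 miRNAs were flagged as detected against 193 to 275. The arms of miR-202, a miRNA of the somatic cells of the gonad, were read as a check of the cell type: of 2 arms, 1 was detected in Sham (miR-202-3p), 2 on each Flut+Acy array and 0 on Flut+Acy+T, and their summed normalized signal was 409, 361, 344 and 11.4 units in that order. On Flut+Acy+T the lowest total signal flagged as detected was 238 units, against 0.766 to 2.67 on the other 3 arrays. The lack of a detected arm there therefore cannot check the cell type. Signals are from bulk RNA, so fewer cells of a type and less RNA per cell cannot be told apart.

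mmu-miR-29a, which is made from the chromosome 6 pair, gave a total signal of 1350 ± 115 units (software error) in Sham, 4033 ± 333 and 4255 ± 345 in the Flut+Acy pair and 4538 ± 387 with testosterone replacement (Flut+Acy+T). Relative to Sham these were ratios of 2.99, 3.15 and 3.36, near those of the summed signal. mmu-miR-29b, the member with 2 genes, gave 278 ± 26.5 units in Sham, 1308 ± 122 and 1357 ± 125 in the Flut+Acy pair and 1171 ± 166 in Flut+Acy+T. Its ratios to Sham were 4.71, 4.88 and 4.21, the highest of the 3′ arms on each of these arrays. mmu-miR-29c gave 411 ± 29.7 units in Sham, 1087 ± 78.1 and 1189 ± 84.4 in the Flut+Acy pair and 1379 ± 157 in Flut+Acy+T, which were ratios of 2.65, 2.89 and 3.35. All 3 were lowest in Sham, and both Flut+Acy arrays lay above Sham by more than the software errors. The star arm mmu-miR-29c* gave 12.6 ± 2.65 units in Sham, 24.2 ± 3.20 and 33.9 ± 4.62 in the Flut+Acy pair and 572 ± 131 in Flut+Acy+T. Its ratio to Sham was 1.92 and 2.69 for the Flut+Acy pair, and 45.4 for Flut+Acy+T, where the other 3 members were at 3.35 to 4.21.

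**Figure D1:**
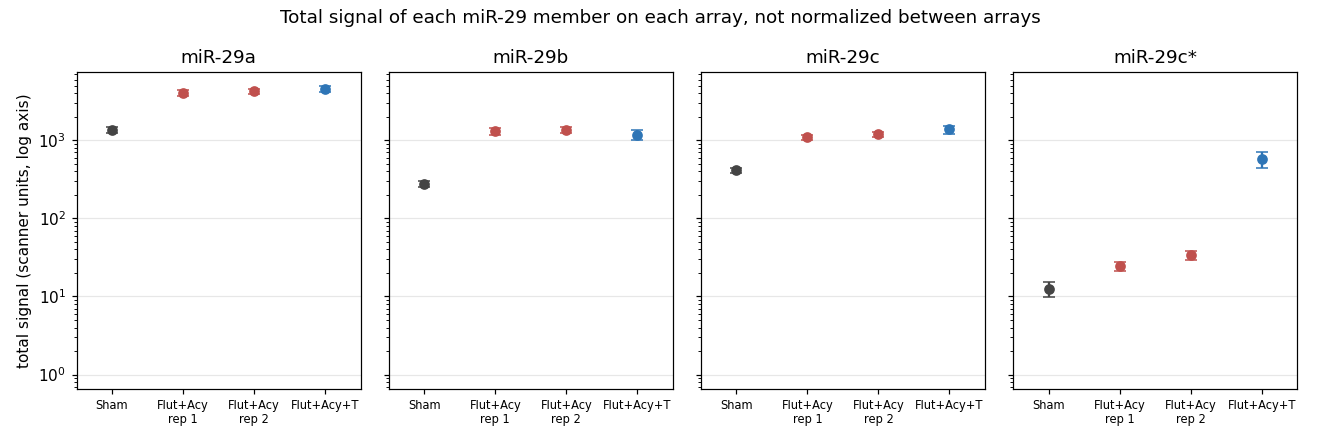
Total signal of each member (scanner units, log axis) on the 4 arrays before any normalization between arrays, with bars for the software error of 1 array. The 3 members of the 3′ arm lie higher on every other array than on Sham, and miR-29c* lies at 572 units on Flut+Acy+T against 12.6 to 33.9 elsewhere.

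As a share of the summed signal of an array, miR-29a made up 2.33% in Sham, 2.89% and 2.64% in the Flut+Acy pair and 2.25% on Flut+Acy+T. The share of miR-29b was 0.480% in Sham, 0.937% and 0.840% in the Flut+Acy pair and 0.580% on Flut+Acy+T, so that it was highest on the pair. On Flut+Acy+T its shorter probe had 0 of 10 spots well above background, while 33.5% of the negative-control spots were well above it. The part of that background in the summed signal was not tested. miR-29c held 0.710% in Sham, 0.779% and 0.736% in the Flut+Acy pair and 0.683% on Flut+Acy+T, the narrowest range of the 4. The share of miR-29c* was 0.0217% in Sham, 0.0174% and 0.0210% in the Flut+Acy pair and 0.283% on Flut+Acy+T.

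For tests between groups the total signals were quantile-normalized, which gives every array the same set of values and so sets a member's value by its rank on the array. On this log2 scale, miR-29a was at 11.68 in Sham, 12.02 and 11.68 in the Flut+Acy pair and 11.81 on Flut+Acy+T, so the Flut+Acy pair reached down to the Sham value. miR-29b was at 9.79 in Sham, 10.22 and 10.14 in the Flut+Acy pair and 9.76 on Flut+Acy+T, with both Flut+Acy arrays above the others. miR-29c was at 10.11 in Sham, 9.93 and 9.98 in the Flut+Acy pair and 9.98 on Flut+Acy+T, so that Sham was highest and the replacement array equalled 1 of the pair. These 3 members thus stayed within 0.43 of Sham on every array. miR-29c* was at 6.48 in Sham, 5.51 and 5.62 in the Flut+Acy pair and 8.51 on Flut+Acy+T.

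**Figure D2:**
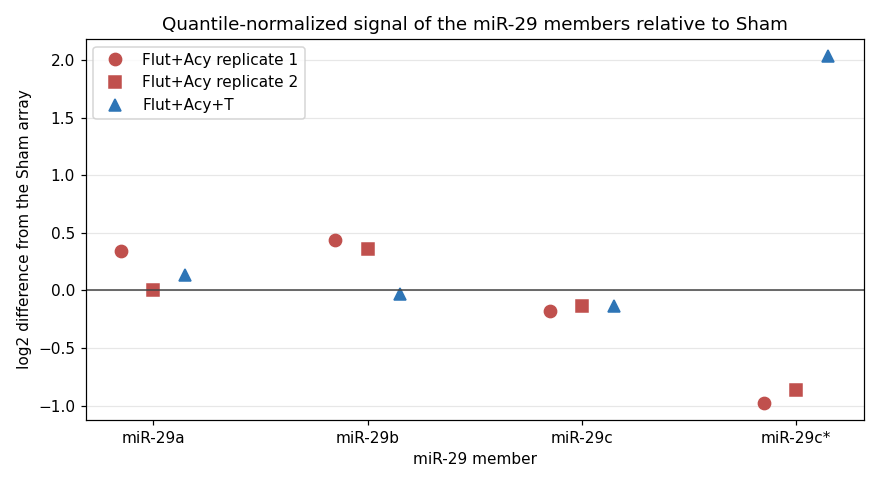
Difference of the quantile-normalized signal from the Sham array (log2) for the 4 members, 1 point per array, with Sham at 0. The 3′ arms lie between -0.18 and 0.43, while miR-29c* lies at -0.97 and -0.86 in the Flut+Acy pair and at 2.03 on Flut+Acy+T.

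The first comparison asked how the members differed after flutamide and acyline given together, with limma fitted over the 298 miRNAs that some array detected. In Flut+Acy against Sham, 1 of the 4 members passed an adjusted p of 0.05, where 54.0% of all miRNAs tested did, and it was miR-29c*, which was lower. It differed by -0.92 on the log2 scale (standard error 0.08, limma adjusted p = 0.0430), a 1.89-fold lower normalized signal, and 28.5% of all miRNAs tested were called lower. Without normalization between arrays miR-29c* was instead higher in Flut+Acy by 1.19 (limma adjusted p = 0.0489), where the median of all miRNAs tested was itself higher by 1.68. With miRNAs scaled to the 75th percentile of those detected on all 4 arrays, its difference was -0.16 (limma adjusted p = 0.632). The call was also lost with all 567 mouse miRNAs in the fit (limma adjusted p = 0.141), with 75th percentile scaling over all mouse miRNAs, with processed spot signals and by the methods' single-factor analysis of variance. That analysis is 1 F test over the 3 groups together, not over this pair. After an adjustment that the methods do not name, it passed 0 of 243 miRNAs. Over the ways of computing the signal the limma adjusted p of miR-29c* ran from 0.0205 to 0.632. Its signals in this comparison were also dim, with 5 of 20 spots well above background on Sham and 12 and 11 on Flut+Acy.

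None of the 3′ arms passed in this comparison. miR-29b came nearest, at 0.39 on the log2 scale (standard error 0.06, unadjusted 95% interval 0.05 to 0.74, limma adjusted p = 0.0691), and it passed at 0.91 (limma adjusted p = 0.0233) under the same 75th percentile scaling, with a range of limma adjusted p from 0.0062 to 0.764 over the alternatives. miR-29a differed by 0.17 (95% interval -1.35 to 1.69, limma adjusted p = 0.636), where the Flut+Acy arrays differed from each other by 0.34. miR-29c differed by -0.15 (95% interval -0.35 to 0.04, limma adjusted p = 0.101). The median of the 4 members was 0.01, against -0.15 for all miRNAs tested and -0.30 for the 76 that, like the members, were detected on all 4 arrays. The direction of each of the 3′ arms turned under some way of computing the values, that of miR-29b with the authors' deposited values (-0.032), so none is given a direction in this comparison. Ranked by their differences, the members fell in the order miR-29b, miR-29a, miR-29c and miR-29c* from the highest to the lowest under 7 of 8 ways of computing the values. The exception was the authors' deposited values, in which miR-29a stood above miR-29b.

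Marker miRNAs of other cell types, which a preparation of Sertoli cells could hold, are set beside this comparison. The list of germ cell miRNAs (the miR-34b, miR-34c and miR-449 group), all 6 on the array, summed to 1689 normalized units on Sham with 3 detected, and to 7157 and 6018 on Flut+Acy with 5 detected on each. The paper lists miR-34b-5p, miR-34c, miR-34c* and miR-449a among the androgen-responsive miRNAs of purified Sertoli cells, higher in Flut+Acy. It also reports a loss of germ cells under this treatment. The 5 miRNAs of muscle, all detected on these arrays, summed to 5142 on Sham against 2717 and 2860 on Flut+Acy. The stromal miRNAs, 2 of 3 on the array, summed to 1699 against 846 and 896. The list of 6 blood miRNAs summed to 1038 on Sham against 494 and 498, with 3, 5 and 4 detected. In that list miR-144 was at the floor on all 4 arrays, while miR-451 was detected at 8.57 on Sham and 7.09 and 7.17 on Flut+Acy (log2 scale). The endothelial list of 2 miRNAs summed to 1647 against 2062 and 1938, and its members moved apart. On the log2 scale miR-126-3p was at 10.60 on Sham and 10.97 and 10.88 on Flut+Acy. miR-126-5p was at 6.57 on Sham and 5.94 and 5.89 on Flut+Acy. With testosterone replacement the sums were 2491 units for germ cells (3 of 6 detected), 3180 for muscle (3 of 5), 1118 for stroma (1 of 2), 414 for blood (0 of 6) and 3285 for endothelium (1 of 2). There miR-126-3p was at 11.68 on the log2 scale and miR-126-5p at the floor. In the germ cell list miR-34b-3p was at 8.33 there against 6.06 and 6.09 on Flut+Acy. miR-34b-5p, miR-34c, miR-34c* and miR-449a were lower there than on Flut+Acy, and miR-449b was at the floor on all 4 arrays. The part of these cells in the values of the miR-29 members was not tested.

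The second comparison asked what testosterone changed in the presence of both drugs. In Flut+Acy+T against Flut+Acy, 2 of the 4 members passed, where 75.2% of all miRNAs tested did. miR-29c* was higher by 2.95 on the log2 scale (standard error 0.08, limma adjusted p = 0.0094), where 21.5% of all miRNAs tested were called higher. By the methods' single-factor analysis of variance over the 3 groups together, miR-29c* passed an unadjusted p of 0.05, the level the methods name. The call was lost there after adjustment over 243 miRNAs, which the methods do not name (analysis of variance adjusted p = 0.0835). miR-29b was lower, at -0.43 on the log2 scale (standard error 0.06, limma adjusted p = 0.0498), where 53.7% were called lower. The call of miR-29b lay at the threshold and was lost without normalization between arrays (-0.19, limma adjusted p = 0.430), with processed spot signals, with normexp background correction, with the 76 miRNAs detected on all 4 arrays alone, with all 567 in the fit and by that analysis of variance. Over the ways of computing the signal its limma adjusted p ran from 0.0058 to 0.430. miR-29a differed by -0.04 (95% interval -1.56 to 1.49, limma adjusted p = 0.937) and miR-29c by 0.02 (95% interval -0.17 to 0.21, limma adjusted p = 0.617), and neither passed. The median of the 4 members was -0.01, against -1.08 for all miRNAs tested and 0.13 for the 76 detected on all 4 arrays.

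The probes of miR-29b did not move alike on the replacement array. Its probe covering 21 bases gave 254 units in Sham, 1195 and 1242 in the Flut+Acy pair and 1106 in Flut+Acy+T, with 10 of 10 spots well above background on every array. Its probe covering 20 bases gave 24.0 units in Sham, 113 and 115 in the Flut+Acy pair and 65.6 on Flut+Acy+T, with 10 of 10 spots well above background on the first 3 arrays and 0 of 10 on the last. Relative to the mean of the Flut+Acy pair, and with no normalization, the longer probe was at -0.14 on the log2 scale and the shorter at -0.80 on Flut+Acy+T. The authors' deposited values for miR-29b were 67.9 in Sham, 67.1 and 65.6 in the Flut+Acy pair and 14.1 on Flut+Acy+T, a log2 difference of -2.23 between Flut+Acy+T and Flut+Acy. How the probes were combined into those values is not given in the sources used here. For miR-29a and miR-29c, both probes were brighter on every other array than on Sham, by 1.55 to 2.03 and by 1.35 to 1.86 on the log2 scale.

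**Figure D3:**
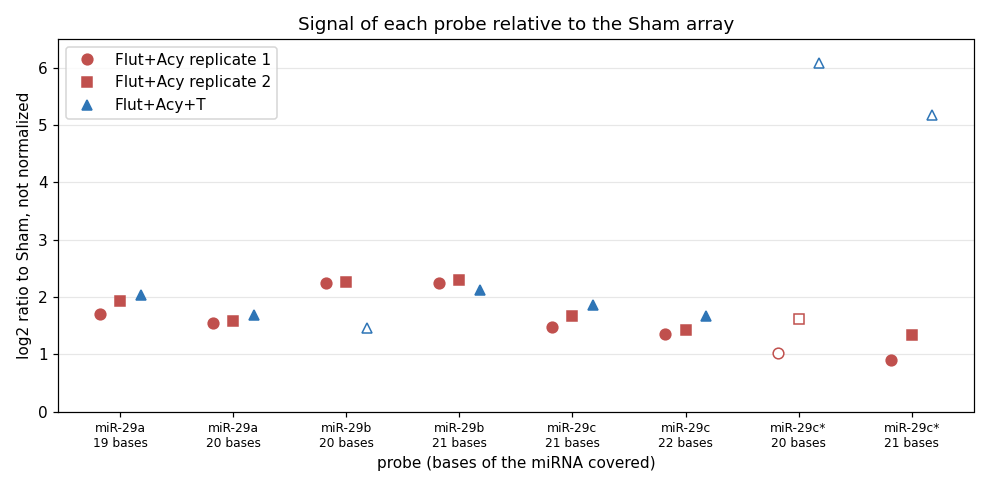
Log2 ratio of each probe's signal to Sham, not normalized between arrays, for the 2 probes of each member, with open symbols where fewer than 5 of 10 spots were well above background. The probes of miR-29a and miR-29c lie between 1.35 and 2.03, the shorter probe of miR-29b lies at 1.45 on Flut+Acy+T, and both probes of miR-29c* lie at 6.07 and 5.17 there, in open symbols.

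The third comparison set the replacement array against Sham. Of the 4 members, 1 passed in Flut+Acy+T against Sham, where 65.8% of all miRNAs tested did, and it was again miR-29c*, higher by 2.03 on the log2 scale (standard error 0.09, limma adjusted p = 0.0192). Of all miRNAs tested, 17.4% were called higher. The call was lost with all 567 mouse miRNAs in the fit (limma adjusted p = 0.0764) and, after adjustment, by the analysis of variance over the 3 groups. Each side of this comparison is 1 array, and the spread is borrowed from the Flut+Acy pair. miR-29a differed by 0.13 (limma adjusted p = 0.793), miR-29b by -0.03 (limma adjusted p = 0.786) and miR-29c by -0.13 (limma adjusted p = 0.137). The median of the 4 members was 0.05, against -0.47 for all miRNAs tested and -0.03 for the 76 detected on all 4 arrays.

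The high value of miR-29c* on Flut+Acy+T stood within the range of the negative controls of that array. Its median spot was at 439 units, and 262 of the 672 negative-control spots (39.0%) were at or above it. On the other arrays the median spot of miR-29c* was at 10.2 units on Sham and 17.4 and 24.4 on Flut+Acy, and 7, 2 and 5 negative-control spots were at or above these. Only 3 of the 20 spots of miR-29c* were well above background on Flut+Acy+T, fewer than on any other array. The 7 negative-control sequences had median signals of -57.4 to 2992 units on that array, against at most 7.45 elsewhere, and 3 of them had all 64 of their spots well above background. Of the 3′ arms, miR-29a was the least exposed to this, with 26 negative-control spots (3.87%) at or above its median spot on Flut+Acy+T. For miR-29b and miR-29c the counts there were 194 (28.9%) and 199 (29.6%), nearer to that of miR-29c*. On the other 3 arrays the count was 0 for each of the 3′ arms. The part of this background in the call of miR-29c* and in the values of the 3′ arms was not tested.

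**Figure D4:**
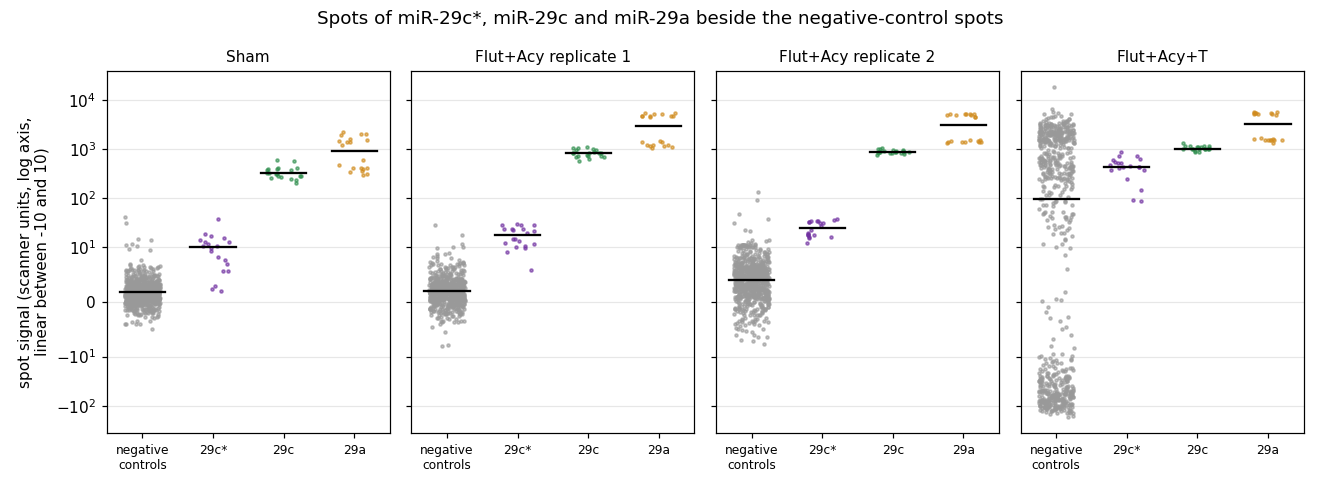
Spot signals (scanner units, on a log axis that turns linear near 0) of the 672 negative-control spots and of the 20 spots each of miR-29c*, miR-29c and miR-29a on the 4 arrays, with black bars for medians. On Flut+Acy+T the negative controls spread over the range of miR-29c*, and 26 of them reach the median of miR-29a.

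The other star arms on the array were read the same way. miR-29a* was flagged as detected only on Flut+Acy+T, at 402 ± 90.0 units with 2 of 20 spots well above background. On the other 3 arrays it gave 0.82 to 8.62 units. miR-29b* was flagged as detected only on the Flut+Acy arrays, at 3.85 ± 1.90 and 8.20 ± 2.81 units, and gave -1.45 ± 87.5 units on Flut+Acy+T. The star arms miR-29a* and miR-29c* were therefore both brightest on the array with the high negative controls. For miR-29b* the software error there exceeded its total signal on every other array. Its probes there gave -44.8 to 39.3 units, with 0 of 20 spots well above background. Whether miR-29b* was brighter there than elsewhere cannot be told.

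Setting the arms of miR-29c against each other within an array removes any scaling that multiplies both by the same factor. Quantile normalization is not such a scaling, so the difference is given with and without it. The difference of miR-29c minus miR-29c* is not a ratio of amounts, since probes differ in brightness, and it is compared here between arrays alone. With quantile normalization it was 3.63 in Sham, 4.43 and 4.36 in the Flut+Acy pair and 1.46 on Flut+Acy+T, on the log2 scale. Without normalization it was 5.03 in Sham, 5.49 and 5.13 in the Flut+Acy pair and 1.27 on Flut+Acy+T. The Flut+Acy pair lay above Sham and the replacement array lay below all others on both scales. The change from Sham to Flut+Acy was 0.76 after quantile normalization and 0.28 without it, where the pair itself differed by 0.07 and 0.36, so that without normalization the change was smaller than the gap within the pair. The change from Flut+Acy to Flut+Acy+T was -2.93 after quantile normalization and -4.04 without it, and from Sham to Flut+Acy+T it was -2.17 and -3.76. With 1 array against 2, an exact permutation test cannot give a one-sided p below 0.333. Sham against Flut+Acy+T is 1 array against 1, which allows still less. All these changes are therefore described without a test. The last 2 changes rest on the miR-29c* signal of the Flut+Acy+T array described above.

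**Figure D5:**
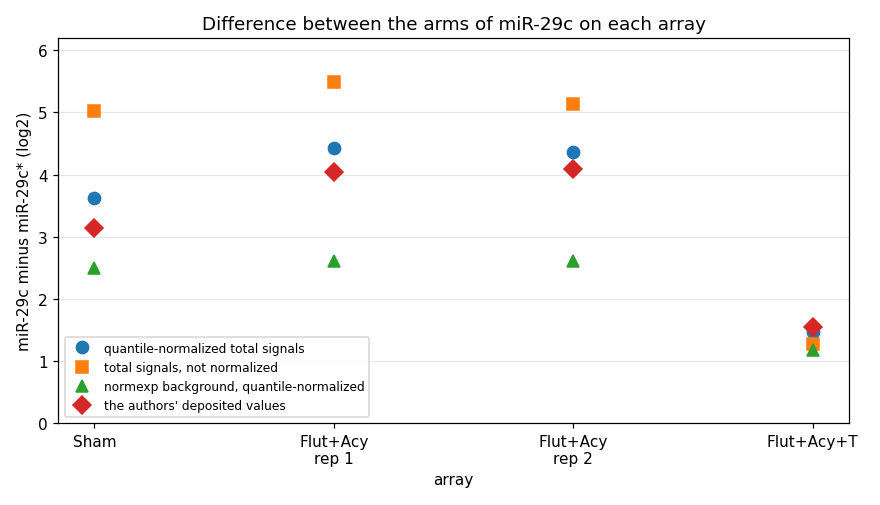
Difference between miR-29c and miR-29c* (log2) on each array under 4 ways of computing the signal, 1 point per array. All 4 give a higher difference on Flut+Acy than on Sham and the lowest on Flut+Acy+T, between 1.18 and 1.55, and they differ in the size of the step from Sham to Flut+Acy.

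The miRNAs most like the family in pattern were sought among those detected on all 4 arrays, by the largest gap on any array between a miRNA's difference from Sham and the mean of the 4 members. That mean was -0.09 and -0.16 in the Flut+Acy pair and 0.50 on Flut+Acy+T. The nearest were miR-26a with a largest gap of 0.24, let-7a with 0.24 and let-7i with 0.32, over 3 arrays. miR-26a was at -0.27 and -0.15 in the Flut+Acy pair and 0.26 on Flut+Acy+T relative to Sham. When miR-29c* was left out of the mean, a choice made after its values were seen, the nearest were miR-22 with a largest gap of 0.10, miR-322 with 0.16 and let-7i with 0.19.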

How the data were processed

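The authors deposited, for each of the 4 arrays, the output of Agilent Feature Extraction 9.5.3.1, which holds background-subtracted intensities of spots, probes and miRNAs on a linear scale with flags for detection, not normalized between arrays. They also deposited a table of quantile-normalized intensities, by their methods made in MATLAB, which was used as an alternative only. The number of arrays limits the precision. All 4 arrays lay on 1 slide and were scanned together, so no block applied.

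The total signals were quantile-normalized over 567 mouse miRNAs, without the 10 viral miRNAs and the control spots. Values under a floor of 5.46 units (the lowest detected value of each array, taken as the median of the 4) were set to it before log2 was taken. All 3 groups entered 1 fit with limma 3.58.1 (R 4.3.3) over 298 miRNAs, with Benjamini-Hochberg adjustment; 1 residual degree of freedom came from the Flut+Acy pair, and the prior had 0.46 degrees of freedom with an SD of 0.01. This step was tested on simulated data for Flut+Acy against Sham alone, with an equal spread on all 4 arrays. The comparisons with Flut+Acy+T were not tested in this way. The methods' single-factor analysis of variance was run as an alternative, as was, chosen after seeing the data, their Tukey comparison (SciPy 1.17.1). Both were adjusted over miRNAs by Benjamini-Hochberg, whereas the methods name a p under 0.05 and no such adjustment. The study selected its array miRNAs by a normalized ratio of at least 2-fold. The analysis of variance tests the 3 groups together, so its p is the same for each comparison. Other alternatives changed the scaling, background correction, floor, miRNAs tested and arrays used. Named miRNAs were the 4 members, the other star arms of the family and the 3 nearest patterns, besides markers of cell types and those nearest without miR-29c*, a choice made after values were seen. The members, marker lists and tests were chosen with earlier results of these data known. Mature and hairpin sequences were matched by name in RefSeq (GRCm38.p6) for all 4 members, and mm9 positions of the array were not converted.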

Additional observations from a re-analysis of the deposited data

How the results depend on the processing

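The call of miR-29c* in Flut+Acy+T, against Flut+Acy and against Sham, kept its direction and its side of the threshold under all 7 other ways of computing the signal. It was lost against Sham with all mouse miRNAs in the fit. After adjustment it was lost in both comparisons by the methods' single-factor analysis of variance and their Tukey comparison. The number of members called in Flut+Acy against Sham was 1 with quantile normalization, 2 with 75th percentile scaling over all mouse miRNAs, 4 without normalization, 0 with processed spot signals, 2 with normexp background correction, 0 with all mouse miRNAs in the fit and 0 by the analysis of variance, which called 0 of 243 miRNAs after adjustment and 1 member before it. The methods' Tukey comparison, added after seeing the data, called 0 members after adjustment in each of the 3 comparisons, and 0 of 243 miRNAs; at an unadjusted p of 0.05 it called miR-29c* in Flut+Acy+T against Flut+Acy alone (adjusted p = 0.0926). In Flut+Acy+T against Flut+Acy the number was 2, becoming 3 when scaled to the 75th percentile of the miRNAs that all 4 arrays detected, 4 when scaled to that of all mouse miRNAs, 1 without normalization, with processed spot signals, with normexp, with miRNAs detected on all 4 arrays alone and with all mouse miRNAs, and 0 by the analysis of variance. In Flut+Acy+T against Sham it was 1, becoming 4 with 75th percentile scaling over all mouse miRNAs and without normalization, 2 with the authors' deposited values, and 0 with all mouse miRNAs and by the analysis of variance.

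The change of the arm difference from Sham to Flut+Acy (0.76) was 0.28 without normalization and under both 75th percentile scalings, 0.11 with normexp, 0.92 with the deposited values and, chosen after seeing the data, 0.97 with normalization and fit without the Flut+Acy+T array, where 1 member was still called. It ranged from 0.73 to 0.80 when 1 Flut+Acy array was left out. From Flut+Acy to Flut+Acy+T (-2.93) it was -4.04 without normalization and under both percentile scalings, -3.05 with processed spot signals, -1.42 with normexp, -2.51 with the deposited values and -2.96 to -2.89 when 1 Flut+Acy array was left out. From Sham to Flut+Acy+T (-2.17) it was -3.76, -2.29, -1.31 and -1.58 under the same settings.

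Apart from miR-29c* in Flut+Acy against Sham without normalization (1.19), the directions that turned were those of 3′ arms that had not passed the test. In Flut+Acy against Sham, miR-29a turned to -0.56 with 75th percentile scaling over all mouse miRNAs, miR-29b to -0.032 with the deposited values, and miR-29c to 0.12 with scaling over miRNAs detected on all 4 arrays and 1.47 without normalization. In Flut+Acy+T against Flut+Acy, miR-29a turned to 0.13 without normalization, 0.40 with the deposited values and from -0.21 to 0.13 on leaving out 1 Flut+Acy array, and miR-29c to -0.25 and -1.35 under the percentile scalings over miRNAs detected on all 4 arrays and over all mouse miRNAs. In Flut+Acy+T against Sham, miR-29a turned to -0.12 and -2.06 under these scalings in that order, miR-29b to 0.20 under the first, 2.07 without normalization, 0.023 with processed spot signals and 0.026 with normexp, and miR-29c to 1.75 without normalization and 0.14 with the deposited values. Why the values moved between settings was not tested. No paired analysis was possible because the labels name no pairing of arrays between groups. Signals within the range of the negative controls limit miR-29c* on Flut+Acy+T. On Sham and the Flut+Acy pair its signals were dim, with 5, 12 and 11 of 20 spots well above background. Each of Sham and Flut+Acy+T is a single array.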
